A study of Mus musculus with 16 samples.

Results

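Lung gene expression was compared between non-pregnant mice given titanium dioxide (TiO2) particles and non-pregnant mice given saline. All mice were females of the inbred BALB/c strain. The TiO2 mice received 50 ug of respirable-size TiO2, heated to remove endotoxin, in phosphate-buffered saline (PBS) into the nose under light anaesthesia. The PBS mice received the vehicle in the same way. Total lung RNA was taken 19 hours later from both groups, and no allele or other treatment separates them. The comparison takes the 4 non-pregnant TiO2 samples and the 4 non-pregnant PBS samples, 8 of the 16 samples of the series. The other 8 came from pregnant mice and entered the fit for its estimate of spread alone. Whether a sample is 1 mouse or a pool is not stated. The p-values therefore judge differences against the spread between samples within the groups of the series, which may be partly technical. The labels of PBS replicate 2 conflict: the source name gives a pregnant mouse, while the gestation field gives the opposite. The sample was kept as non-pregnant because the sample table in the labels lists 4 samples of that kind.

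Particles that reach the airspaces are met first by alveolar macrophages, which take them up, and by the airway and alveolar epithelium. Particles that injure or activate these cells draw neutrophils into the lung through chemokines such as Cxcl1 and cytokines such as Il1b, and TiO2 is widely used as a particle of low toxicity. A dissected lung can also carry tissue that lies against it in the chest, such as thymus, lymph node, fat and heart muscle, and the RNA of these enters a whole-lung extract. In such bulk samples, fewer cells of a type and less RNA per cell cannot be told apart.

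Each sample was hybridised to 1 single-colour Affymetrix whole-genome mouse array, and the number of arrays limits the precision. Levels below are log2(intensity + 16) after quantile normalization, and a difference is the TiO2 mean minus the PBS mean on that scale, with the standard error (SE) of the fit, n = 4 per group unless arrays are left out. Genes of lung were high on all 8 arrays: the surfactant protein gene Sftpc ranged from 13.17 to 13.49, the club cell secretoglobin Scgb1a1 from 13.44 to 13.55 and the alveolar type 1 receptor Ager from 13.11 to 13.29. Over all genes tested, pairs of PBS arrays correlated with r from 0.967 to 0.983, pairs of TiO2 arrays from 0.983 to 0.989 and pairs across the groups from 0.966 to 0.984. The 3′ to 5′ signal ratio of beta-actin, a measure of RNA integrity, lay between 1.30 and 1.46 on these arrays. The deposited 18S ribosomal RNA signal was 139 ± 49.7 (SD, n = 4) after PBS and 359 ± 200 after TiO2, with ranges of 77.2 to 194 and 132 to 589 that overlap. Its part in the differences below was not tested.

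Before any effect of the particles, 2 of the 4 PBS arrays stood apart by transcripts of the thymus, the organ behind the breastbone in which T cells mature. Rag1, a subunit of the recombinase that assembles antigen receptors, was at 4.18, 4.41, 9.16 and 9.66 in PBS replicates 1 to 4. It was at 4.53, 4.11, 4.02 and 4.04 in TiO2 replicates 1 to 4. PBS replicates 3 and 4 were therefore more than 4 log2 units above every other array. Dntt, the polymerase that adds untemplated nucleotides during the same process, was at 4.29, 4.86, 9.28 and 9.43 in the PBS replicates and between 4.37 and 5.40 after TiO2. Ccr9, a receptor of developing T cells, and its ligand Ccl25, made by thymic epithelium, were at 9.02 and 9.37, and at 8.12 and 9.15, in PBS replicates 3 and 4, and both names were chosen after their values were seen. Foxn1, the factor that specifies thymic epithelium, was between 4.96 and 5.55 on all 8 arrays, under the array median of 5.94. Genes such as Rag1 were above the array median on only these 2 of the 16 arrays and so did not pass the filter, which required 4; their values come from the fit without a filter.

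**Figure D1:**
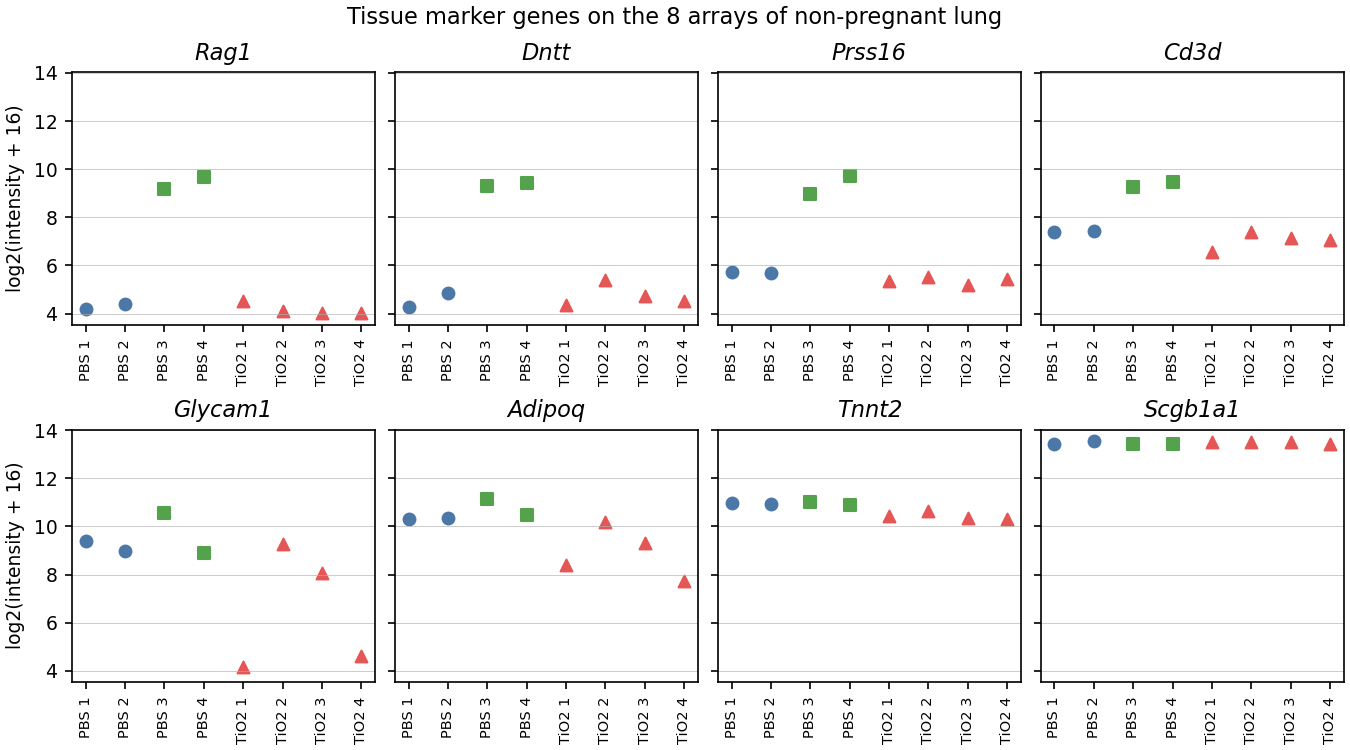
Level of 8 tissue marker genes on each array, as log2(intensity + 16). Circles are PBS replicates 1 and 2, squares PBS replicates 3 and 4 and triangles the TiO2 replicates. The thymus genes Rag1, Dntt and Prss16 were high on PBS replicates 3 and 4 alone, Glycam1 was near the floor on TiO2 replicates 1 and 4 (4.14 and 4.60), and the lung gene Scgb1a1 was even.

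PBS replicates 1 and 2 carry the numbers 2 and 3 in their titles, the TiO2 replicates 4 to 7, and PBS replicates 3 and 4 the numbers 11 and 16. Whether these numbers mark an order of dissection or hybridisation is not stated. The gene and list differences below are followed by their values without PBS replicates 3 and 4, where 2 PBS arrays remain. Of these 2, PBS replicate 2 is the array with conflicting labels, and its trimmed mean signal (137) was the lowest of the arrays compared.

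No single gene passed the test. Of 12369 genes, limma called 0 (percent called 0) at a Benjamini-Hochberg adjusted p under 0.05, with a lowest adjusted p of 0.146, and 1223 had an unadjusted p under 0.05. Without PBS replicates 3 and 4 limma also called 0 (percent called 0), with a lowest adjusted p of 0.147 and 1138 genes at an unadjusted p under 0.05. On simulated data with these group sizes, the 16-array test recovered 62% of 50 genes changed 1.5-fold and 96% of 50 changed 2-fold. Without the 2 arrays it recovered 48% and 84%. The same simulation also held 50 genes changed 3-fold and 50 changed 4-fold, which eases the adjusted threshold for the rest. Its noise was independent between genes, without the tissue content that genes share on the real arrays. These shares therefore cannot be carried over to the real comparison. The size of change behind the typical gene was small: the 5th and the 95th percentile of all differences were −0.34 and 0.25.

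The balance of lower and higher genes shifted with PBS replicate 3, though the lower side still led without that array alone. With all 8 arrays, 54.5% of the genes lay below 0, and of the genes at an unadjusted p under 0.05, 780 were lower after TiO2 (6.31% of all tested) and 443 higher (3.58%). Without PBS replicate 3 alone, 50% lay below 0, and 489 were lower and 388 higher. Without PBS replicate 4 alone, which was as rich in thymus transcripts, 55.5% lay below 0, and 835 were lower and 509 higher. Without both, 49.6% lay below 0, and 534 were lower and 604 higher. The genes both in this set and in that of all arrays numbered 310 on the lower side and 216 on the higher side. Without PBS replicate 2 alone, 55.7% lay below 0, and 1085 were lower and 640 higher. The split also depended on the normalization. The trimmed mean signal of the deposited values was between 206 and 240.3 on the TiO2 arrays and between 137 and 241 on the PBS arrays. With values as deposited, the median of all genes was 0.17 rather than −0.02, 16.4% lay below 0, and 425 were higher and 103 lower at an unadjusted p under 0.05. The choice of probe set moved the split too. With the most variable probe set per gene, 50.6% lay below 0, and 719 were higher and 673 lower. Over every probe set, 49.5% lay below 0, and 1327 were higher and 1180 lower. In the main fit, differences of 1 log2 unit or more were found on the lower side alone, in 34 genes. Of these, 14 kept that size without PBS replicates 3 and 4. At 0.5 log2 units, 246 genes were lower and 68 higher; 111 and 43 of them kept that size.

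**Figure D2:**
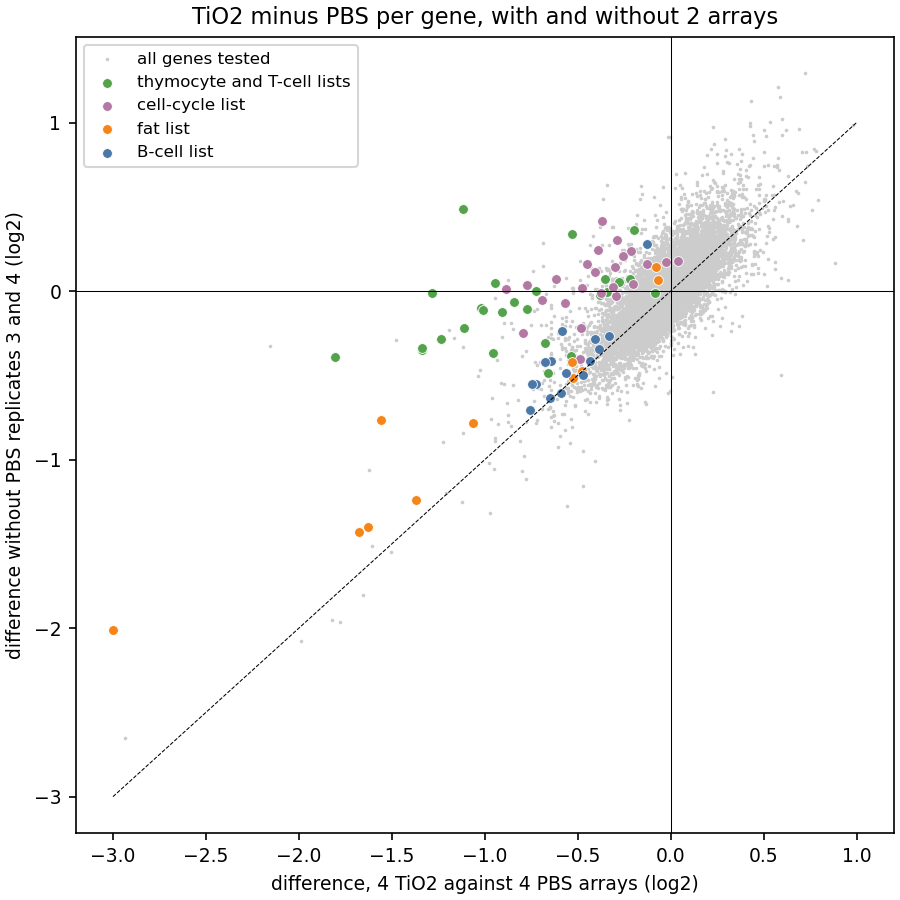
TiO2 minus PBS difference of each of the 12369 genes with all 8 arrays (horizontal axis, log2) against the difference without PBS replicates 3 and 4 (vertical axis, log2); both axes share the TiO2 and 2 of the PBS arrays, and the dashed line marks equal values. Thymocyte, T-cell and cell-cycle genes left the line towards 0, while fat and B-cell genes stayed closer to it.

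A stricter description of a difference is that all 4 TiO2 arrays lay on 1 side of all 4 PBS arrays. This held on the higher side for 258 genes (2.09%) and on the lower side for 385 (3.11%). The largest such difference upwards was that of Tmem252, a membrane protein gene. Tmem252 was at 7.25, 7.34, 7.22 and 7.38 after PBS and at 8.20, 8.08, 8.29 and 8.55 after TiO2. Both groups were tight and far apart, and PBS replicates 3 and 4 lay beside replicates 1 and 2. The difference was 0.98 ± 0.19, or 1.98-fold (limma, adjusted p = 0.146), and 0.99 ± 0.25 without PBS replicates 3 and 4 (adjusted p = 0.248).

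Other genes on the higher side depended more on PBS replicate 3. Slc10a6, a carrier of sulfated steroid hormones, was at 9.46, 9.78, 8.53 and 9.58 after PBS and at 10.16, 9.94, 10.32 and 9.97 after TiO2. PBS replicate 3 was the lowest array, and the difference of 0.76 ± 0.26 was 0.48 ± 0.27 without PBS replicates 3 and 4 (limma, adjusted p = 0.370 and 0.601). Gabrp, the pi subunit of the GABA-A receptor found in epithelia, showed the same order, at 8.44, 8.78, 7.78 and 8.57 after PBS and between 8.91 and 9.27 after TiO2. Its difference was 0.63 ± 0.17, and 0.41 ± 0.15 without the 2 arrays. Mettl21e, a methyltransferase of muscle, stood at 0.79 ± 0.18 and 0.54 ± 0.18 without them. Nufip2, an RNA-binding protein, stood at 0.63 ± 0.24 and 0.43 ± 0.27. Tmem102 (0.72 ± 0.19, and 0.65 ± 0.19 without the 2 arrays) and the stress-activated kinase Map3k6 (0.73 ± 0.30, and 0.74 ± 0.33) kept their size. Myo1h, an unconventional myosin, was carried by 1 array: it was between 5.83 and 6.11 in TiO2 replicates 1 to 3 and 7.24 in replicate 4, with a difference of 0.63 ± 0.38 and 0.68 ± 0.50 without PBS replicates 3 and 4. For these 8 genes limma's adjusted p lay between 0.146 and 0.600.

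On the lower side, Prss16, a protease of the thymic epithelium, had the largest difference among genes without overlap. It was at 5.73, 5.67, 8.98 and 9.72 after PBS and at 5.35, 5.52, 5.18 and 5.43 after TiO2. PBS replicates 1 and 2 were just above the TiO2 arrays, and the rest of the difference was in replicates 3 and 4. Its value of −2.15 ± 0.69 (4.45-fold lower; limma, adjusted p = 0.322) was −0.33 ± 0.24 without them (adjusted p = 0.713). Nrip2, which encodes a nuclear receptor interacting protein, behaved otherwise. It was at 8.79, 8.01, 7.92 and 8.38 after PBS and at 6.45, 5.81, 7.28 and 6.25 after TiO2, and the 2 thymus arrays lay among the other PBS arrays. The difference was −1.82 ± 0.36 (3.54-fold lower; limma, adjusted p = 0.146), and −1.95 ± 0.46 without them (adjusted p = 0.236). Orm1, an acute-phase plasma glycoprotein, was at 8.44, 7.37, 8.13 and 6.95 after PBS and at 5.92, 6.42, 5.77 and 5.67 after TiO2, a difference of −1.78 ± 0.39 that was −1.96 ± 0.46 without the 2 arrays (limma, adjusted p = 0.224 and 0.236). Rhbdd3, a rhomboid family gene, was at 6.01, 6.11, 7.76 and 5.71 after TiO2 and between 7.77 and 8.13 after PBS, so TiO2 replicate 3 lay just under the PBS range. The value for Rhbdd3 was −1.51 ± 0.37, and −1.55 ± 0.49 without PBS replicates 3 and 4. Of its 2 other probe sets 1 had the same sign, and without TiO2 replicate 3 it was the 1 gene limma called (adjusted p = 0.0454). The other 4 of these 8 genes, Thrsp, Adipoq, Mrap and Retn, belong to fat and are described with it.

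**Figure D3:**
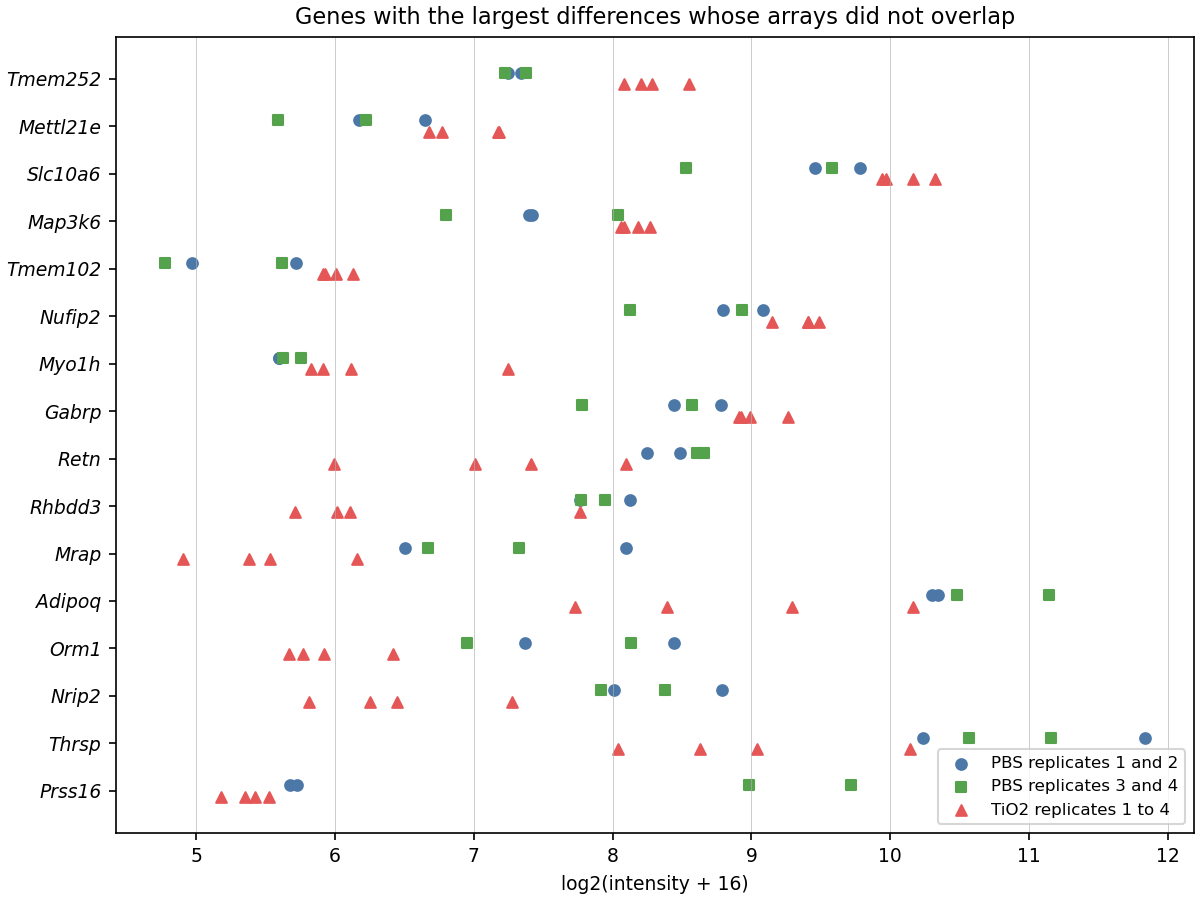
Level on each array, as log2(intensity + 16), of the 8 genes with the largest higher and the 8 with the largest lower difference among genes whose groups did not overlap. Circles and squares are PBS replicates 1 and 2, and 3 and 4; triangles are the TiO2 replicates. By this choice every gene drawn separates TiO2 from every PBS array. For Prss16 the squares lie far above all other arrays, whereas for Tmem252, Nrip2 and Orm1 they lie near the circles.

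Leaving out PBS replicates 3 and 4 brought up another set of genes. With 2 PBS arrays, 1110 genes (8.97%) lay entirely higher and 1170 (9.46%) entirely lower. Among the smallest p on the higher side were Irak1 and Tab3, both part of the signalling path from interleukin-1 and Toll-like receptors to NF-kB. Irak1, a kinase, was at 8.32, 8.06, 9.76 and 9.05 after PBS and at 8.96, 9.21, 8.93 and 9.27 after TiO2. TiO2 lay above PBS replicates 1 and 2 but not above 3 and 4, so the difference was 0.29 ± 0.26 with all arrays and 0.90 ± 0.14 without the 2 (limma, adjusted p = 0.754 and 0.147). None of the 3 other probe sets of Irak1 had the same sign in the comparison of all arrays. Tab3, an adaptor of the kinase Tak1, had 8.08 and 8.22 in PBS replicates 1 and 2, 8.73 and 8.54 in 3 and 4 and 8.64 to 8.78 after TiO2, giving 0.32 ± 0.11 and 0.56 ± 0.09. The cytokinesis protein Anln (0.32 ± 0.14 and 0.60 ± 0.11), the ubiquitin ligase Rnf103 (0.31 ± 0.10 and 0.51 ± 0.10), Lrrc46 (0.72 ± 0.27 and 1.29 ± 0.22) and 2310047K21Rik (0.36 ± 0.18 and 0.76 ± 0.14) showed the same arrangement. For these 6 genes PBS replicates 3 and 4 lay with the TiO2 arrays or close to them.

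The genes with the smallest p on the lower side in that fit were mostly lower with all arrays too. Glis2, a zinc-finger repressor, was at 9.40, 9.30, 9.31 and 9.04 after PBS and at 8.88, 8.74, 8.84 and 8.73 after TiO2. The groups did not overlap, and the difference was −0.47 ± 0.09 with all arrays and −0.56 ± 0.10 without the 2 (limma, adjusted p = 0.146 and 0.147). Plxna3, a semaphorin receptor, stood at −0.42 ± 0.08 and −0.52 ± 0.09, and the Arf GTPase regulator Adap1 at −0.63 ± 0.12 and −0.71 ± 0.15. Rbp4, the plasma carrier of retinol that liver and fat secrete, was at 9.84, 10.06 and 9.61 in PBS replicates 2 to 4, with replicate 1 between replicates 2 and 3, and at 9.02, 9.40, 9.24 and 9.22 after TiO2, a difference of −0.66 ± 0.13 and −0.70 ± 0.15 without the 2 arrays. Omd, a matrix proteoglycan, stood at −0.78 ± 0.23 and −1.12 ± 0.23, with overlap in the full set. Oxa1l, an insertase of the inner mitochondrial membrane, stood at −0.46 ± 0.12 and −0.65 ± 0.13, though its 1 other probe set had the opposite sign. All of these missed the threshold, with limma's adjusted p between 0.146 and 0.299 for all arrays.

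The lists of lymphocyte genes separated into those that followed the thymus arrays and those that did not. The 10 thymocyte genes tested of 20 listed all lay below 0 (background 54.5%), 4 of them without overlap (background 3.11%), with a median of −0.99 beside −0.02 for all genes. Without PBS replicates 3 and 4 the median was −0.20 and 8 of 10 lay below 0 (background 49.6%). Thy1, a surface glycoprotein of T cells, was at 8.06, 7.85, 9.81 and 10.11 after PBS and at 7.39, 7.72, 7.69 and 7.67 after TiO2. Its difference of −1.34 ± 0.38 was −0.34 ± 0.13 without the 2 arrays (limma, adjusted p = 0.279 and 0.471). Satb1, a chromatin organiser of thymocytes, stood at −1.24 ± 0.36 and −0.29 ± 0.15. Cd3d, a signalling subunit of the T-cell receptor, was at 7.37, 7.42, 9.28 and 9.47 after PBS and at 6.58, 7.40, 7.14 and 7.06 after TiO2, and its difference went from −1.34 ± 0.39 to −0.35 ± 0.21. The 16 mature T-cell genes all lay below 0, with a median of −0.63, and 10 of 16 lay below 0 without the 2 arrays, with a median of −0.02. The 5 thymic epithelium genes tested of 10 all lay below 0 as well, with a median of −0.06, and 2 of 5 with a median of 0.00 without the 2 arrays.

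Cell-cycle genes, which a thymus full of dividing cells expresses strongly, followed the same arrays. Of 24 tested, 23 lay below 0 with a median of −0.38; without PBS replicates 3 and 4, 17 of 24 lay above 0 (background 50.4%) with a median of 0.06. Mki67, the proliferation marker, was at 7.57, 7.16, 8.71 and 9.16 after PBS and at 7.55, 7.80, 7.80 and 7.97 after TiO2. TiO2 arrays were thus below PBS replicates 3 and 4 and mostly above 1 and 2, and the difference turned from −0.37 ± 0.31 to 0.41 ± 0.15 (limma, adjusted p = 0.730 and 0.400). Top2a, the topoisomerase of dividing cells, turned from −0.77 ± 0.34 to 0.04 ± 0.22. The survivin gene Birc5 went from −0.69 ± 0.25 to −0.05 ± 0.13, and the spindle checkpoint kinase Bub1b from −0.79 ± 0.24 to −0.25 ± 0.17. Mcm2, a subunit of the replicative helicase, kept its position: it was at 8.31, 8.21, 8.37 and 8.49 after PBS and at 7.92, 7.80, 7.82 and 7.90 after TiO2. For Mcm2 the groups did not overlap, and the difference was −0.49 ± 0.10 with all arrays and −0.40 ± 0.12 without the 2 (limma, adjusted p = 0.146 and 0.304).

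B-cell genes lay lower after TiO2 with and without the thymus arrays. All 15 tested of 17 listed lay below 0 (background 54.5%) with a median of −0.59, 3 of them without overlap (20%, background 3.11%). Without PBS replicates 3 and 4, 14 of 15 lay below 0 (background 49.6%), with a median of −0.42. Their mean level per array was 7.06, 7.49, 7.83 and 7.25 after PBS and 6.54, 7.11, 7.04 and 6.78 after TiO2, so PBS replicate 1 lay within the TiO2 range. Blk, a kinase of the B-cell receptor, was at 6.61, 6.98, 7.08 and 6.46 after PBS and at 6.14, 6.17, 6.34 and 6.13 after TiO2, a difference of −0.59 ± 0.19 and −0.60 ± 0.23 without the 2 arrays. Cr2, the complement receptor of B cells and follicular dendritic cells, stood at −0.75 ± 0.22 and −0.55 ± 0.26, and Fcmr, the receptor for IgM, at −0.65 ± 0.21 and −0.64 ± 0.27. Among genes of antibody-secreting cells and IgA transport, 6 of 9 lay below 0, with medians of −0.14 and −0.12. Of these, Mzb1, a chaperone of IgM assembly, stood at −0.47 ± 0.13 and −0.36 ± 0.17, and Jchain, which joins antibody units, at −0.70 ± 0.21 and −0.58 ± 0.27. Of natural killer genes 8 of 9 lay below 0 both ways (medians −0.27 and −0.22), among them the transcription factor Eomes at −0.73 ± 0.19 and −0.65 ± 0.23. Limma's adjusted p for these named genes lay between 0.275 and 0.326 over all arrays.

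A marker of lymph nodes was lowest on the same TiO2 arrays. Glycam1, a mucin of the high endothelial venules through which lymphocytes enter lymph nodes, was at 9.38, 8.97, 10.57 and 8.91 after PBS and at 4.14, 9.29, 8.06 and 4.60 after TiO2. It was at the floor in TiO2 replicates 1 and 4, and TiO2 replicate 2 lay within the PBS range. The difference was −2.94 ± 1.32 (limma, adjusted p = 0.479), −2.65 ± 1.70 without PBS replicates 3 and 4 and −0.79 without TiO2 replicates 1 and 4. Ltb, the lymphotoxin that maintains lymph node structure, was at 9.23, 9.05, 9.72 and 9.11 after PBS and at 8.21, 8.71, 8.76 and 8.57 after TiO2, lower without overlap, at −0.71 ± 0.18 and −0.58 ± 0.20 without PBS replicates 3 and 4. Of the 10 genes of venules and node stroma listed, 4 passed the filter and 3 of these lay below 0. The B-cell median was −0.34 without TiO2 replicates 1 and 4 and −0.47 with the Glycam1 level as a covariate.

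Genes of fat cells had the lowest median of all lists described. The 11 tested of 16 all lay below 0 (background 54.5%), 4 of them without overlap (36.4%, background 3.11%), with a median of −1.07. Without PBS replicates 3 and 4 the median was −0.76, with 9 of 11 below 0 (background 49.6%). Adipoq, the hormone adiponectin made by fat cells, was at 10.30, 10.34, 11.15 and 10.49 after PBS and at 8.39, 10.17, 9.30 and 7.73 after TiO2. All TiO2 arrays were lower, but replicate 2 only just, and replicates 1 and 4 most. Its difference was −1.68 ± 0.59 (3.19-fold lower; limma, adjusted p = 0.372), −1.43 ± 0.76 without PBS replicates 3 and 4 and −0.84 without TiO2 replicates 1 and 4. Fabp4, the fatty acid binding protein of fat cells and macrophages, was at 12.69, 11.91, 13.02 and 12.49 after PBS and at 10.40, 12.13, 11.18 and 9.88 after TiO2, a difference of −1.63 ± 0.50 and −1.40 ± 0.65 without PBS replicates 3 and 4. The hormone resistin, Retn, stood at −1.37 ± 0.41 and −1.24 ± 0.54, and Mrap, an accessory protein of melanocortin receptors in fat and adrenal, at −1.66 ± 0.47 and −1.81 ± 0.60. The TiO2 arrays lowest in fat genes were the 2 lowest in Glycam1. The fat median was −0.65 without TiO2 replicates 1 and 4 and −0.22 with the Glycam1 level as a covariate.

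The enzymes and regulators that make fatty acids, active in fat and in the alveolar type 2 cells that make surfactant, lay lower independently of the thymus arrays. Of 17 tested, 13 lay below 0 (background 54.5%) and 7 were lower without overlap (41.2%, background 3.11%). The median was −0.45, and −0.69 with 15 of 17 below 0 (background 49.6%) without PBS replicates 3 and 4. Scd1, the desaturase that makes oleate, was at 13.02, 12.73, 12.94 and 12.77 after PBS and at 11.94, 12.51, 12.13 and 12.11 after TiO2. The gap between the groups was narrow at TiO2 replicate 2, and the difference was −0.69 ± 0.13 and −0.70 ± 0.16 without the 2 PBS arrays (limma, adjusted p = 0.146 and 0.236). Fasn, the fatty acid synthase, was at 12.10, 11.14, 11.70 and 11.35 after PBS and at 10.76, 11.05, 10.88 and 10.75 after TiO2, a difference of −0.72 ± 0.21 and −0.76 ± 0.27. Thrsp, an activator of lipogenic enzymes, was at 11.84, 10.24, 11.16 and 10.57 after PBS and at 8.63, 10.14, 9.04 and 8.04 after TiO2. It stood at −1.99 ± 0.52 (3.97-fold lower; limma, adjusted p = 0.275), −2.08 ± 0.67 without PBS replicates 3 and 4 and −1.36 without TiO2 replicates 1 and 4. PBS replicate 1 was the highest array for Thrsp and Fasn. The median of the list was −0.49 without TiO2 replicates 1 and 4 and −0.29 with the Glycam1 level as a covariate, and the alveolar type 2 list as a whole had a median of 0.02.

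Genes of cardiac muscle, which the lung carries in the walls of its large veins and which the heart expresses, also lay lower whether or not the thymus arrays were counted. Of 11 tested, 9 lay below 0 (background 54.5%) and 4 were lower without overlap (36.4%, background 3.11%). The median was −0.41, and −0.49 without PBS replicates 3 and 4. Tnnt2, cardiac troponin T, was at 10.96, 10.95, 11.02 and 10.87 after PBS and at 10.44, 10.63, 10.35 and 10.29 after TiO2. Both groups were tight, and the difference was −0.52 ± 0.10 and −0.52 ± 0.13 without the 2 arrays (limma, adjusted p = 0.146 and 0.248). Tnni3, cardiac troponin I, stood at −0.56 ± 0.15 and −0.65 ± 0.16, and the atrial light chain Myl4 at −0.49 ± 0.15 and −0.48 ± 0.19. Genes of fast skeletal muscle had the opposite sign, with 10 of 11 above 0 and a median of 0.21, and 11 of 11 with a median of 0.36 without PBS replicates 3 and 4. PBS replicate 2 was their lowest array (list mean 9.34, against 9.71 to 10.42 on the other 7).

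Mitochondrial genes lay slightly lower. The respiratory chain consists of complexes I to IV in the inner mitochondrial membrane, and ATP synthase of that membrane is counted with it here. Their subunits come from nuclear and mitochondrial genes, and the nuclear ones are measured here. Of 19 tested genes of a short list, 18 lay below 0 (background 54.5%), with a median of −0.19. Among the 19, 8 were lower without overlap (42.1%, background 3.11%). Without PBS replicates 3 and 4, 16 of 19 lay below 0 (background 49.6%), with a median of −0.16. Over all 77 subunit genes found by symbol, a set chosen after the values were seen, 72 lay below 0, with a median of −0.14. Of the 77, 9 were lower without overlap (11.7%, background 3.11%). The set holds every tested gene of the short list but Cycs, and most of the 9 come from there. Without the 2 arrays, 64 of the 77 lay below 0, with a median of −0.11. Cox5a, a subunit of cytochrome c oxidase, was at 12.08, 11.99, 12.29 and 12.14 after PBS and at 11.86, 11.96, 11.84 and 11.55 after TiO2, a difference of −0.32 ± 0.10. Cycs, cytochrome c itself, was at 11.88, 11.80, 12.08 and 12.02 after PBS and at 11.63, 11.70, 11.66 and 11.45 after TiO2, a difference of −0.34 ± 0.11. Both were −0.23 ± 0.13 without the 2 arrays. Ndufv1 and Ndufa10, subunits of complex I, stood at −0.25 ± 0.09 and −0.32 ± 0.11, and Uqcrq of complex III at −0.42 ± 0.14. Without the 2 arrays they stood at −0.22 ± 0.11, −0.26 ± 0.14 and −0.32 ± 0.17. Over all arrays limma's adjusted p of these 5 genes lay between 0.324 and 0.386. The mean of the 77 genes was 10.87, 10.56, 10.89 and 10.74 after PBS and 10.56, 10.69, 10.62 and 10.51 after TiO2, so PBS replicate 2, the array with conflicting labels, lay among the TiO2 arrays. With values as deposited the median of the 77 was 0.03, where that of all genes was 0.17.

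The promoters of these genes were searched for letters of the motif of NRF1, a factor known to act on nuclear genes of mitochondria. The letters GCGCA, then 1 base of any kind, then GCGC, on either strand, were found in the 250 bases before a start of 11 of the 64 respiratory-chain genes with a RefSeq promoter (17.2%), against 8.92% of the genes tested and 4.23% of all genes of the table. It was also found in 4 of 16 heat-shock genes (25%), a list described below that lay higher, in 2 of 17 clock genes (11.8%) and in 0 of 18 glucocorticoid-response genes. Of the 11 respiratory-chain genes, 10 were tested. Atp5h, a stalk subunit of ATP synthase, was the one among these 10 whose groups did not overlap (difference −0.13), and Ndufa5 and Ndufs5, subunits of complex I, had the lowest differences (−0.31 and −0.25). Their sequences show where the motif, in capitals, sits, 5′ to 3′ on the minus strand that carries each gene, from RefSeq's GRCm38.p6. They were taken from chr11:115419950-115420069, chr6:24527691-24527810 and chr4:123718187-123718306:
Atp5h: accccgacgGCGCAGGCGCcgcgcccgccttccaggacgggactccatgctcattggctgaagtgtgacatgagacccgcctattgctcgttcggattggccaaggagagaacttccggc
Ndufa5: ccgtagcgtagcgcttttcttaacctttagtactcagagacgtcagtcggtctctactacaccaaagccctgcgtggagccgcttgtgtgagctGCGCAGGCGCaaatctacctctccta
Ndufs5: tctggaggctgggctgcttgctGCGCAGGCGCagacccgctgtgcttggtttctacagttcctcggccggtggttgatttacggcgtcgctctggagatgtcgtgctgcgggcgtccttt

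The motif began 141 and 98 bases before the start of transcription in Atp5h and Ndufs5. For Ndufa5 it began 26 bases before the start whose sequence is shown and 190 bases before another listed start. All 3 carry the same 10 letters, GCGCAGGCGC. A match is a description of these letters and not of a bound site, and Sdha, a subunit of complex II that also holds the motif, had a difference of 0.01. Letters of 3 other motifs were searched in the same windows on both strands. The heat-shock element (GAA, 2 bases, TTC, 2 bases, GAA) was found in 0 of the 64 respiratory-chain genes and in 2 of the 16 heat-shock genes (12.5%, against 0.452% of the genes tested). These 2, Hspd1 and Hspe1, lie on opposite strands with overlapping windows, so the same site is counted for both. Their differences were −0.02 and −0.03, with overlapping groups. The E-box CACGTG was found in 9.38% of the respiratory-chain, 12.5% of the heat-shock, 27.8% of the glucocorticoid-response and 29.4% of the clock genes, against 9.67% of the genes tested. The glucocorticoid motif (ACA, 3 bases, TGT) was found in 3 of 18 glucocorticoid-response genes (16.7%, against 4.51% of the genes tested) and in 0 of the other 3 lists.

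**Figure D4:**
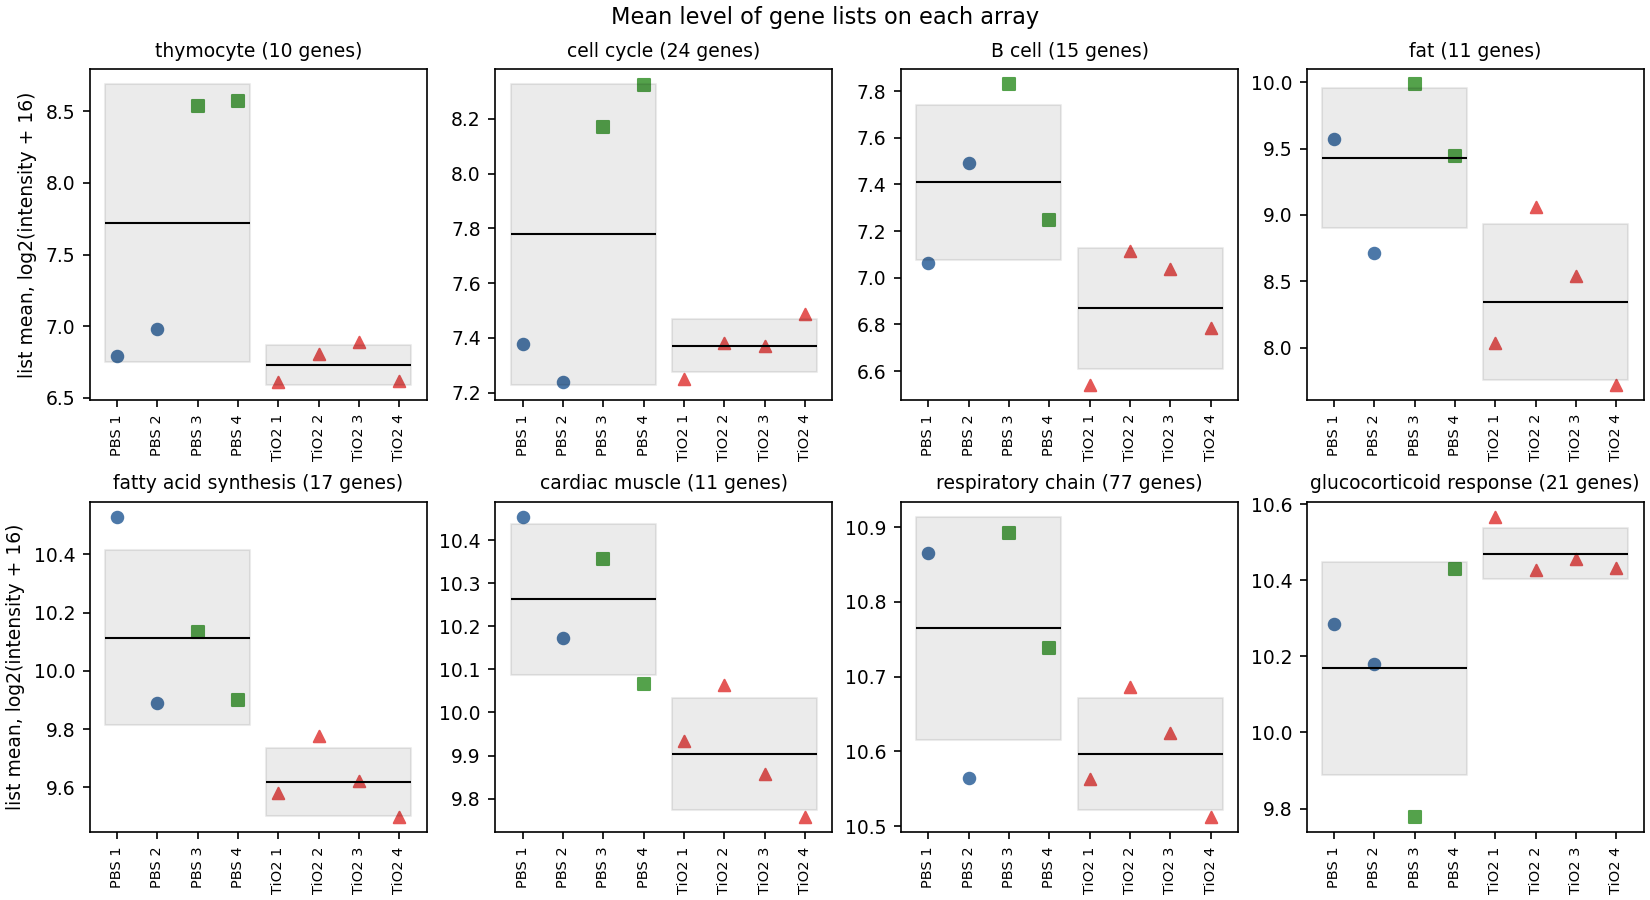
Mean level of the tested genes of 8 lists on each array, as log2(intensity + 16), with the group mean (line) and 1 SD on each side (band, n = 4). Circles and squares are PBS replicates 1 and 2, and 3 and 4; triangles are the TiO2 replicates. The thymocyte and cell-cycle lists were high on PBS replicates 3 and 4 alone, whereas the fatty acid synthesis list was lower on every TiO2 array than on every PBS array.

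On the higher side, genes induced by glucocorticoids, the adrenal hormones of stress and of the daily cycle, formed the list with the highest median over all 8 arrays. Without PBS replicates 3 and 4 the fast skeletal muscle and squamous epithelium lists, at 0.36 and 0.27, had higher ones. Of 21 tested, 19 lay above 0 (background 45.5%), 3 of them without overlap (background 2.09%), with a median of 0.27, and 17 of 21 with a median of 0.21 without PBS replicates 3 and 4. The list mean was 10.29, 10.18, 9.78 and 10.43 after PBS and 10.57, 10.43, 10.45 and 10.43 after TiO2. PBS replicate 3 was the lowest array and PBS replicate 4 reached the TiO2 range. Tsc22d3, the glucocorticoid-induced leucine zipper, was at 11.93, 11.89, 10.85 and 12.02 after PBS and at 12.21, 11.98, 12.10 and 12.21 after TiO2, a difference of 0.45 ± 0.22 that was 0.21 ± 0.19 without the 2 arrays. Fkbp5, a cochaperone of the receptor, was at 8.82, 9.34, 8.75 and 9.60 after PBS and between 9.49 and 9.82 after TiO2, a difference of 0.48 ± 0.33 and 0.52 ± 0.40. The transcription factor Klf9 stood at 0.27 ± 0.08 and 0.15 ± 0.09; of its 5 other probe sets 4 had the same sign. Lcn2, an iron-scavenging protein that glucocorticoids and inflammation induce, was at 10.42, 9.93, 9.57 and 10.20 after PBS and at 10.53, 11.09, 10.38 and 10.76 after TiO2, a difference of 0.66 ± 0.19 and 0.51 ± 0.22 (limma, adjusted p = 0.303 and 0.497). Clock genes did not share 1 direction. Per2, a repressor of the clock, stood at 0.47 ± 0.16 and 0.21 ± 0.16 without the 2 arrays, Nr1d1, a receptor that represses clock activators, at −0.87 ± 0.35 and −0.78 ± 0.38, and the clock output factor Dbp at −0.51 ± 0.34 and −0.44 ± 0.40. Nfil3, which opposes Dbp, stood at 0.45 ± 0.24 and 0.89 ± 0.22. The clock median went from 0.12 to −0.04.

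Heat-shock genes, which encode the chaperones that refold damaged proteins, had a median of 0.15. Of 19 tested, 15 lay above 0 (background 45.5%) and 3 were higher without overlap (15.8%, background 2.09%). Without PBS replicates 3 and 4 the median was 0.13, with 13 of 19 above 0 (background 50.4%). Dnajb1, the partner that loads substrates onto Hsp70, was at 9.33, 9.72, 9.68 and 9.75 after PBS. TiO2 replicates 1, 2 and 4 had 10.60, 9.95 and 9.83, and replicate 3 lay just above replicate 2. TiO2 replicate 1 was the highest array, and the difference was 0.47 ± 0.15 and 0.57 ± 0.19 without the 2 PBS arrays (limma, adjusted p = 0.320 and 0.356). Hspa4l, an exchange factor of Hsp70, stood at 0.45 ± 0.14 and 0.32 ± 0.12 and the cochaperone Dnaja1 at 0.28 ± 0.11 and 0.25 ± 0.13. Hspa1b, an inducible Hsp70, was at 10.70 in TiO2 replicate 1 and between 9.64 and 9.65 in the other 3, against 9.23 to 10.04 after PBS, so its difference of 0.28 ± 0.32 (0.28 ± 0.40 without PBS replicates 3 and 4) came from 1 array and was 0.02 without TiO2 replicates 1 and 4. The heat-shock median was 0.06 without these 2 arrays. Immediate early genes, which respond within minutes to signals and to handling of tissue, had a median of 0.12 both with and without PBS replicates 3 and 4. Among them Fos stood at 0.32 ± 0.20 and 0.37 ± 0.25, Klf4 at 0.38 ± 0.15 and 0.56 ± 0.16, and Egr2 at −0.60 ± 0.19 and −0.26 ± 0.19.

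The genes that mark lung inflammation gave no call. Of the chemokines and cytokines, Cxcl1, the main neutrophil attractant, was at 6.66, 7.62, 7.33 and 7.23 after PBS and at 7.52, 7.73, 6.90 and 6.92 after TiO2, fully overlapping, at 0.06 ± 0.25 and 0.13 ± 0.32 without PBS replicates 3 and 4. With all arrays its 95% interval reached from −0.46 to 0.58, so differences of either sign within that range were compatible with these arrays. Il1a, an alarm cytokine released by injured cells, was at 6.24, 5.60, 5.75 and 5.70 after PBS and at 6.14, 6.13, 6.23 and 6.40 after TiO2. Apart from PBS replicate 1 the groups were apart, and the difference was 0.40 ± 0.11 (limma, adjusted p = 0.283), 0.31 ± 0.14 without PBS replicates 3 and 4, and called without PBS replicate 1. Il1b, the related cytokine of macrophages, had the opposite sign, at −0.39 ± 0.14 and −0.36 ± 0.14. Cxcl10, an interferon-induced chemokine, stood at −0.52 ± 0.20 and −0.43 ± 0.26. The list of 18 tested had a median of 0.04, and 0.03 without the 2 PBS arrays; Il6, Tnf, Cxcl2, Cxcl5, Ccl2, Ccl3, Ccl20 and Csf3 did not pass the filter, and none of them was above 5.66 on any of the 8 arrays. Ccl2, the monocyte attractant, held the highest single value of these. It was at 4.75, 4.88, 4.99 and 4.42 after PBS and 5.66, 5.44, 5.27 and 4.67 after TiO2, all under the array median. In the fit without a filter Ccl2 stood at 0.50 ± 0.23, and at 0.45 ± 0.28 without PBS replicates 3 and 4. Cxcl5 stood at 0.46 and 0.23, Cxcl2 at 0.32 and 0.33, Ccl20 at 0.28 and 0.15, and Tnf at 0.14 and 0.25. Csf3 stood at 0.09 and 0.15, Il6 at −0.08 and −0.18, and Ccl3 at −0.08 and −0.23.

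Neutrophil genes lay, if anything, lower, with 15 of 19 below 0 and medians of −0.13 and −0.19 without PBS replicates 3 and 4. S100a8 and S100a9, the calcium-binding proteins that fill neutrophils, showed overlapping groups. S100a8 was at 10.70, 11.19, 11.19 and 10.54 after PBS and at 10.40, 11.10, 10.75 and 10.18 after TiO2, a difference of −0.30 ± 0.21 that was −0.34 ± 0.25 without PBS replicates 3 and 4 and 0.02 without TiO2 replicates 1 and 4. S100a9 stood at −0.41 ± 0.21, at −0.44 ± 0.25 and at −0.09. Macrophage genes were split, 10 of 19 above 0 with a median of 0.01, and 0.09 without the 2 PBS arrays. Without overlap, 2 were higher (10.5%, background 2.09%) and 2 lower (10.5%, background 3.11%). Ctsk, a cysteine protease of macrophages and fibroblasts, was at 7.97, 7.97, 7.85 and 8.32 after PBS and at 8.48, 8.54, 8.36 and 8.52 after TiO2, higher without overlap, at 0.45 ± 0.11 and 0.51 ± 0.12 (limma, adjusted p = 0.275 and 0.243). Cd14, the lipopolysaccharide co-receptor, stood at 0.44 ± 0.16 but 0.16 ± 0.14 without the 2 PBS arrays, the phagocytic receptor Mertk at 0.28 ± 0.10 and 0.30 ± 0.13, and the elastase Mmp12 at 0.28 ± 0.11 and 0.20 ± 0.14. The 2 lower genes without overlap, named after their values were seen, were C1qc, a chain of complement C1q, and Msr1, a scavenger receptor. C1qc was at 8.85, 8.91, 8.89 and 8.83 after PBS and at 8.76, 8.64, 8.70 and 8.80 after TiO2, a difference of −0.15 ± 0.09 and −0.16 ± 0.11 without the 2 PBS arrays, and 0.06 with values as deposited. Msr1 was at 6.18, 6.03, 6.17 and 5.97 after PBS and at 5.57, 5.90, 5.74 and 5.88 after TiO2, a difference of −0.31 ± 0.17 and −0.33 ± 0.22 (limma, adjusted p = 0.568 and 0.676). Marco, another scavenger receptor that binds particles, was at 6.55, 4.23, 5.54 and 4.16 after PBS and at 4.15, 4.77, 4.13 and 4.24 after TiO2. The difference of −0.80 ± 0.38 rested on PBS replicates 1 and 3, the others being near the floor, and was −1.07 ± 0.42 without PBS replicates 3 and 4. Genes of mast cells, basophils and eosinophils were mostly too weak to test: 3 of 11 passed the filter, the mast cell proteases Cpa3, Cma1 and Tpsb2. All 3 lay below 0, between −0.47 and −0.43, with overlap and a median of −0.43, which was −0.34 without PBS replicates 3 and 4 and −0.10 without TiO2 replicates 1 and 4.

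Acute-phase genes, whose products rise in plasma during inflammation, ranged widely, and antioxidant and metal-response genes showed small values. The 15 acute-phase genes tested lay between −1.78 (Orm1, above) and 0.66 (Lcn2, above), and their median of 0.12 became 0.01 without PBS replicates 3 and 4. Saa3, a serum amyloid made locally in inflamed lung, was at 8.67, 7.76, 6.83 and 7.52 after PBS and at 8.34, 8.22, 8.05 and 8.54 after TiO2. PBS replicate 1 was the highest and PBS replicate 3 the lowest of all 8, and the difference went from 0.59 ± 0.32 to 0.08 ± 0.32. Pigr, which carries IgA across epithelium, stood at 0.43 ± 0.14 and 0.28 ± 0.16. The 21 antioxidant and metal-response genes had a median of 0.00, and 0.01 without the 2 arrays, with all members between −0.21 and 0.25. Their extremes were Slc30a1, a zinc exporter (0.25 ± 0.08 and 0.30 ± 0.09), and Srxn1, which repairs oxidised peroxiredoxins (−0.21 ± 0.10 and −0.34 ± 0.10). Glutathione reductase, Gsr, stood at 0.19 ± 0.13 and 0.30 ± 0.16 and the metallothionein Mt2 at 0.23 ± 0.23 and 0.37 ± 0.28, with limma's adjusted p of these 4 genes between 0.326 and 0.789.

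The lists of lung cell types lay near 0. Medians were 0.02 for alveolar type 2, 0.05 for alveolar type 1, 0.02 for club and secretory, 0.03 for ciliated, 0.03 for endothelial and 0.02 for smooth muscle genes, and −0.03 for fibroblast and matrix genes. Without PBS replicates 3 and 4 they ranged from −0.08 for club and secretory genes to 0.04 for alveolar type 1 genes. Within the secretory list, Tff2, a mucus-associated peptide that protects epithelium, was at 5.84, 5.88, 6.28 and 5.92 after PBS and at 7.23, 6.91, 6.23 and 6.38 after TiO2. It was near the array median after PBS, and TiO2 replicate 3 overlapped PBS replicate 3. The difference was 0.70 ± 0.17, or 1.63-fold, and 0.83 ± 0.21 without PBS replicates 3 and 4 (limma, adjusted p = 0.275 and 0.248). Bpifa1, an antimicrobial protein of the upper airways, stood at −0.64 ± 0.27 and −0.64 ± 0.33. Several lists of immune and stress genes were close to 0 as well, with medians of 0.00 for interferon-stimulated, −0.02 for complement, −0.04 for Toll-like receptor and NF-kB, −0.04 for platelet, 0.05 for unfolded protein response, 0.04 for hypoxia and 0.01 for aryl hydrocarbon receptor genes. Without PBS replicates 3 and 4 these medians were, in the same order, 0.08, −0.04, 0.04, −0.12, 0.02, 0.07 and 0.05. Junction, ribosomal protein and cholesterol synthesis genes had medians of 0.03, 0.01 and −0.03, and of 0.04, 0.03 and 0.02 without the 2 arrays. The 2 erythroid genes tested had a median of 0.19, and of 0.05 without them. Class II antigen presentation genes went from −0.18 to −0.03 without PBS replicates 3 and 4, and squamous epithelium genes from 0.04 to 0.27, with PBS replicate 2 their lowest array (list mean 8.73, against 9.24 to 9.86 on the other 7).

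**Figure D5:**
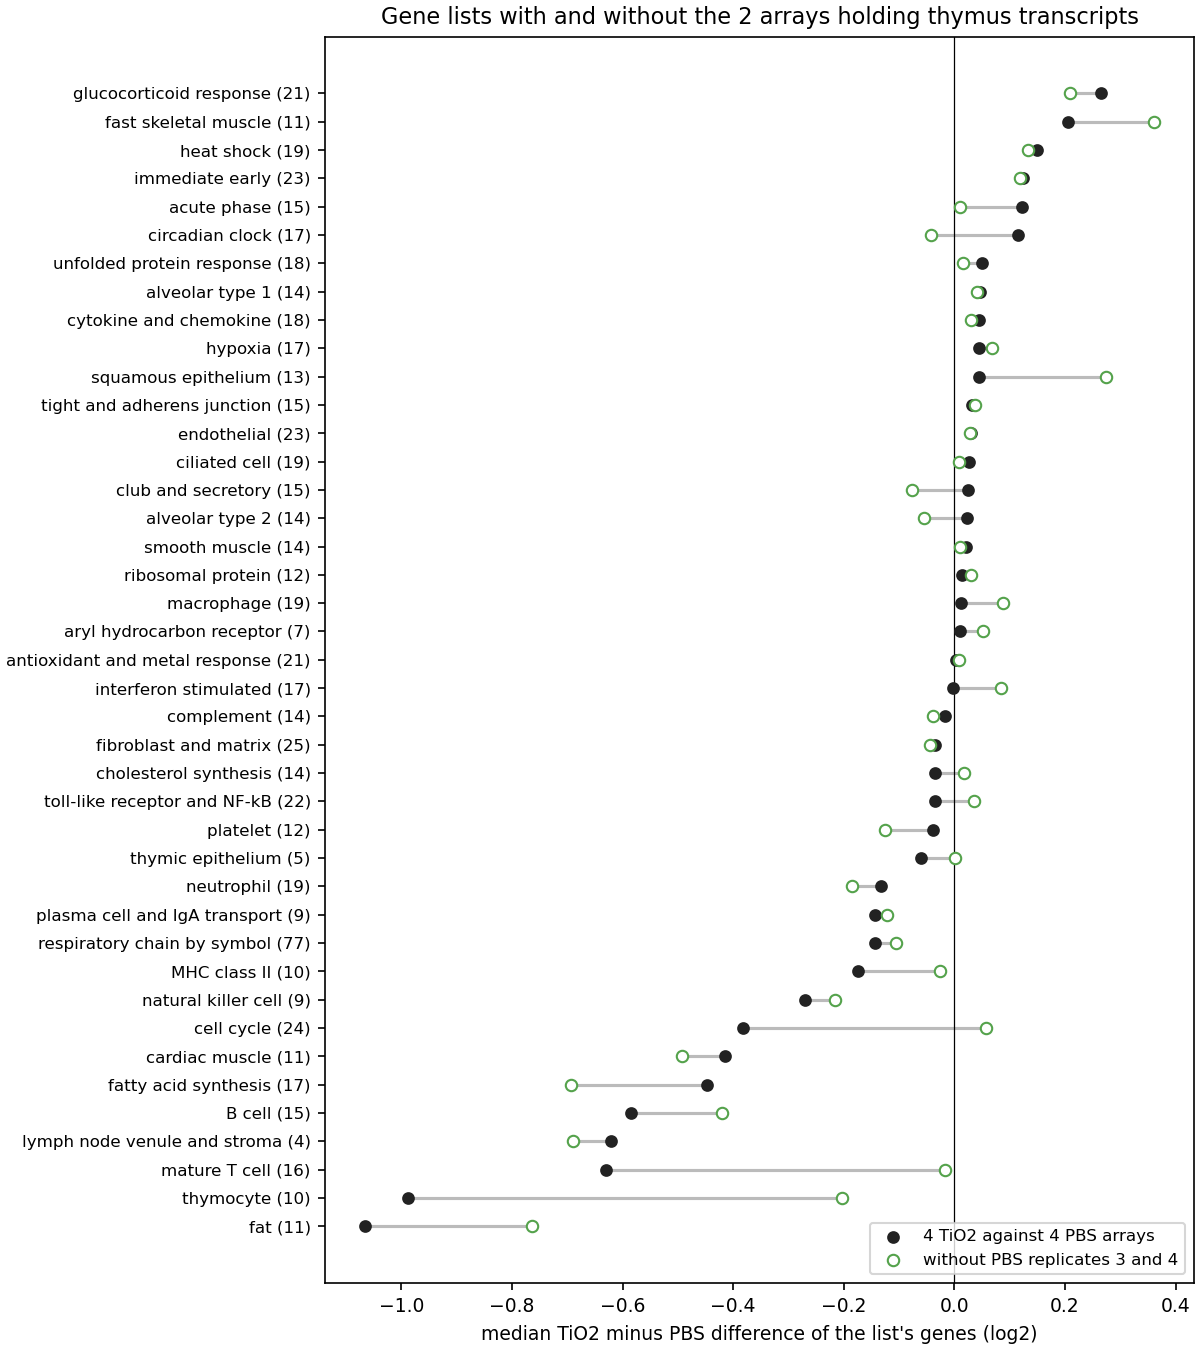
Median TiO2 minus PBS difference (log2) of the tested genes of each list, with their number in parentheses, over all 8 arrays (filled) and without PBS replicates 3 and 4 (open). Lists with fewer than 4 tested genes, the lung-defining list and the short respiratory-chain list are not drawn. The thymocyte, mature T-cell and cell-cycle lists moved towards or past 0, whereas the fat, fatty acid synthesis, B-cell, cardiac muscle and glucocorticoid lists kept their sign.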

How the data were processed

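The members and gene lists of this comparison were chosen with earlier results of these data known. The table that the authors deposited gives intensity on a linear scale, with 45101 probe sets per array. The submitters' processing notes name GCOS, MAS5 and RMA, with no statement of which produced the values. After removal of 64 control probe sets, arrays were quantile-normalized together and log2(value + 16) was computed, so that differences of weak signals are understated. The filter kept the 23995 probe sets that exceeded the median of their array on 4 or more of 16 arrays. Probe sets with 1 gene symbol in the platform annotation (34945; several for 932, none listed for 9160) were named, with symbols updated by Entrez identifier through RefSeq's table of GRCm38.p6 (34741 matched), and the brightest probe set stood for each of 12369 genes.

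Genes were tested with limma 3.58.1 (lmFit, eBayes) in R 4.3.3, fitting 4 group means over 16 arrays with 12 residual degrees of freedom, with Benjamini-Hochberg adjustment over all genes and a threshold of 0.05. The procedure was tested on simulated data. Genes named are the 8 largest differences per direction without overlap, the 6 smallest p per direction without PBS replicates 3 and 4, up to 3 members per list and fixed marker and inflammation genes, of which only examples are printed. The 44 lists hold 755 genes, 616 of them tested; list counts are descriptions, with no test. Alternatives covered the left-out arrays, the thymocyte mean and Glycam1 as covariates, the arrays in the fit, normalization, pseudocount, filter, spread estimate, array weights and the probe set per gene. The respiratory-chain set by symbol was added after the data had been seen.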

Additional observations from a re-analysis of the deposited data

Results flagged for a closer look

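Among 182 gene and group combinations tested for a lone array (91 genes, groups of 4), 10 had an array whose distance from the nearest other exceeded Dixon's critical value as a share of the group's range; chance gives about 1 in 20. In PBS, replicate 3 was low for Tsc22d3 (10.85, the others 11.89 to 12.02) and Hspa4l (8.24, the others 8.86 to 8.97) and high for Slc30a1 (10.22, the others 9.93 to 9.98). PBS replicate 1 was low for Dnajb1 (9.33, the others 9.68 to 9.75). After TiO2, replicate 1 was low for Thy1 (7.39, the others 7.67 to 7.72) and Mzb1 (6.61, the others 6.86 to 6.88) and high for Hspa1b (10.70, the others 9.64 to 9.65). TiO2 replicate 2 was high for Marco (4.77, the others 4.13 to 4.24), replicate 3 for Blk (6.34, the others 6.13 to 6.17) and replicate 4 for Srxn1 (7.62, the others 7.48 to 7.50). In the test of whether the TiO2 difference depended on pregnancy, limma called 0 of 12369 genes, with a lowest adjusted p of 0.232 and 1352 at an unadjusted p under 0.05.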

How the results depend on the processing

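Limma called 0 of 12369 genes, and between 0 and 5 when each array was left out in turn (5 without PBS replicate 1 or 2, 1 without TiO2 replicate 3, 0 without each other). Without a filter it called 1 of 18193 (Atp4a, adjusted p = 0.0355). Genes without overlap, 258 higher and 385 lower, numbered 1110 and 1170 without PBS replicates 3 and 4. They numbered 641 and 831 without TiO2 replicates 1 and 4, and 659 and 606 over every probe set. With values as deposited, 217 were higher and 5 lower. Leaving out each array gave 355 to 659 higher and 475 to 936 lower. Fewer arrays per group make such counts larger by construction. Of 1996 differences of 91 named genes under alternatives, 16 changed sign. Without PBS replicates 3 and 4 Top2a turned to 0.038 and Mki67 to 0.41. With the thymocyte mean as a covariate Birc5 was at 0.035, Top2a at 0.093, Mki67 at 0.49 and Saa3 at -2e-04. With the Glycam1 covariate Glycam1 was at 0, by construction, and Cxcl1 at −0.053. S100a8 was at 0.019 without TiO2 replicates 1 and 4, and C1qc at 0.0623 with values as deposited. With the most variable probe set Klf9 was at −0.043, Dnaja1 at −0.043 and Srxn1 at 0.074. Leaving out 1 array put Cxcl1 between −0.1245 and 0.197. Apart from Glycam1, the cause of these changes was not tested. No paired analysis was possible because replicates were numbered by the order of accession and the labels tie no PBS sample to a TiO2 sample. Signals near the floor of 4 log2 units carry little information on direction.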
